A study of Homo sapiens with 6 samples.

Results

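Of the 19903 genes listed in each of 6 human cell line libraries, 32 encode glucose transporters, glycolytic enzymes and their isoforms, the PFKFB enzymes, lactate dehydrogenases, lactate transporters and the kinases of the pyruvate dehydrogenase complex. They were chosen by gene symbol for their place in the pathway, with earlier results of these data known, and all 32 were found. The libraries came from A549 and H1299, both human lung carcinoma lines, and from a further pair labelled H2030, also a lung cancer line. Cells of each line had received an empty vector or one encoding malin, an E3 ubiquitin ligase made from the NHLRC1 gene, and all cells were at passage 5. Each line and vector has 1 library, so n = 1 within a line and n = 3 over lines, and the promoter of the vector and the number of clones are not given in the sources used here.

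Glycolysis splits glucose into pyruvate in the cytosol. Glucose enters through facilitative transporters, hexokinase traps it as a phosphate, phosphofructokinase commits it to breakdown, and pyruvate kinase makes pyruvate. Lactate dehydrogenase turns pyruvate into lactate, which leaves the cell through monocarboxylate transporters, whereas the pyruvate dehydrogenase (PDH) kinases phosphorylate and restrain the mitochondrial enzyme that would otherwise burn it. Most steps are served by several genes, and tumour cells are known for high glycolytic flux and for their choice among these isoforms.

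Levels are given as FPKM, fragments per transcript length and library depth, which allows genes to be compared per length. The spacing of low values gave an estimated 8300000 to 10700000 fragments per library. NHLRC1, the gene on the vector, was the higher of each pair with malin, at 1.21 and 6.82 FPKM in A549, 2.85 and 119 in H1299, and 0.18 and 3.69 in the H2030-labelled pair. The value column of the malin library labelled H2030 was headed with a name used for HEK293T, an embryonic kidney line, whereas that of its empty-vector partner was headed H2030. The headers thus name different lines within the pair, so H2030 is used only as a label, and a difference between lines and a difference between vectors cannot be told apart in it. Carcinoma markers went both ways in that pair. TM4SF1 and ITGA3 were at 0.19 to 0.23 and 3.27 to 3.56 FPKM, against at least 136 and 121 in the other libraries, and KRT19 was listed at 0 there, as in the H1299 malin library. EPCAM, at 8.55 and 5.41 FPKM with empty vector and then malin, and CLDN7, at 1.54 and 1.46, were higher there than in the other libraries, which reached at most 1.75 and 0.14. CDH1 was at 2.56 and 2.71 FPKM, within the A549 values of 1.67 to 3.27 and above the 0.02 or less of H1299. The summed level of 11 epithelial carcinoma markers was 164 to 189 FPKM there, 1369 to 1382 in H1299 and 3520 to 4175 in A549. Lung lineage markers summed to 0.77 to 10.8 FPKM over the 6 libraries, and NKX2-1 was at 1.85 and 3.78 in the H2030-labelled pair, 0.77 and 0.60 in H1299 and listed at 0 in both A549 libraries, as were SFTPB and AQP5. Immune markers summed to 6.98 to 55.6 FPKM, mostly CD68 in A549 and H1299, with PTPRC at 0.07 or less. Neuronal cytoskeleton markers, led by TUBB3 and INA in A549 and H1299 and by NEFL and NEFM in the H2030-labelled pair, summed to 74.2 to 256 FPKM. Fibroblast and endothelial markers summed to 0.54 to 15.7 FPKM and erythroid markers to at most 4.85.

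The 32 genes held 2.58% and 2.69% of the summed FPKM in the A549 libraries with empty vector and malin, 2.28% and 2.30% in H1299, and 1.49% and 1.91% in the H2030-labelled pair. They therefore made up the smallest share in the empty-vector library labelled H2030. The most abundant was GAPDH, the glyceraldehyde phosphate dehydrogenase often used as a reference gene, at 2065 to 4562 FPKM. PFKFB1 and PKLR, the PFKFB and pyruvate kinase genes best known from liver, had a mean under 1 FPKM, at 0 to 0.96 and 0.10 to 1.33, and were not fitted. Of the 30 genes fitted, 4 were below 1 FPKM in at least 1 library (HK2, ALDOC, SLC16A3 and PDK4) and passed the filter through the lines in which they were higher. The 32 genes lie on 13 chromosomes, with 6 on chromosome 12 (SLC2A3, PFKM, TPI1, GAPDH, ENO2 and LDHB). In RefSeq on GRCh38.p14 (hg38), GAPDH spans chr12:6534517-6538371, TPI1 chr12:6867420-6870948 and ENO2 chr12:6914580-6923697. Many members have processed copies in the genome. GENCODE 29 names 62 pseudogenes after GAPDH, 13 after PGAM1, 6 after LDHA and 5 after PKM, and the sources used here do not give how fragments shared with such copies were assigned. The tables are per gene, so the M1 and M2 transcripts of PKM were not told apart.

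**Figure D1:**
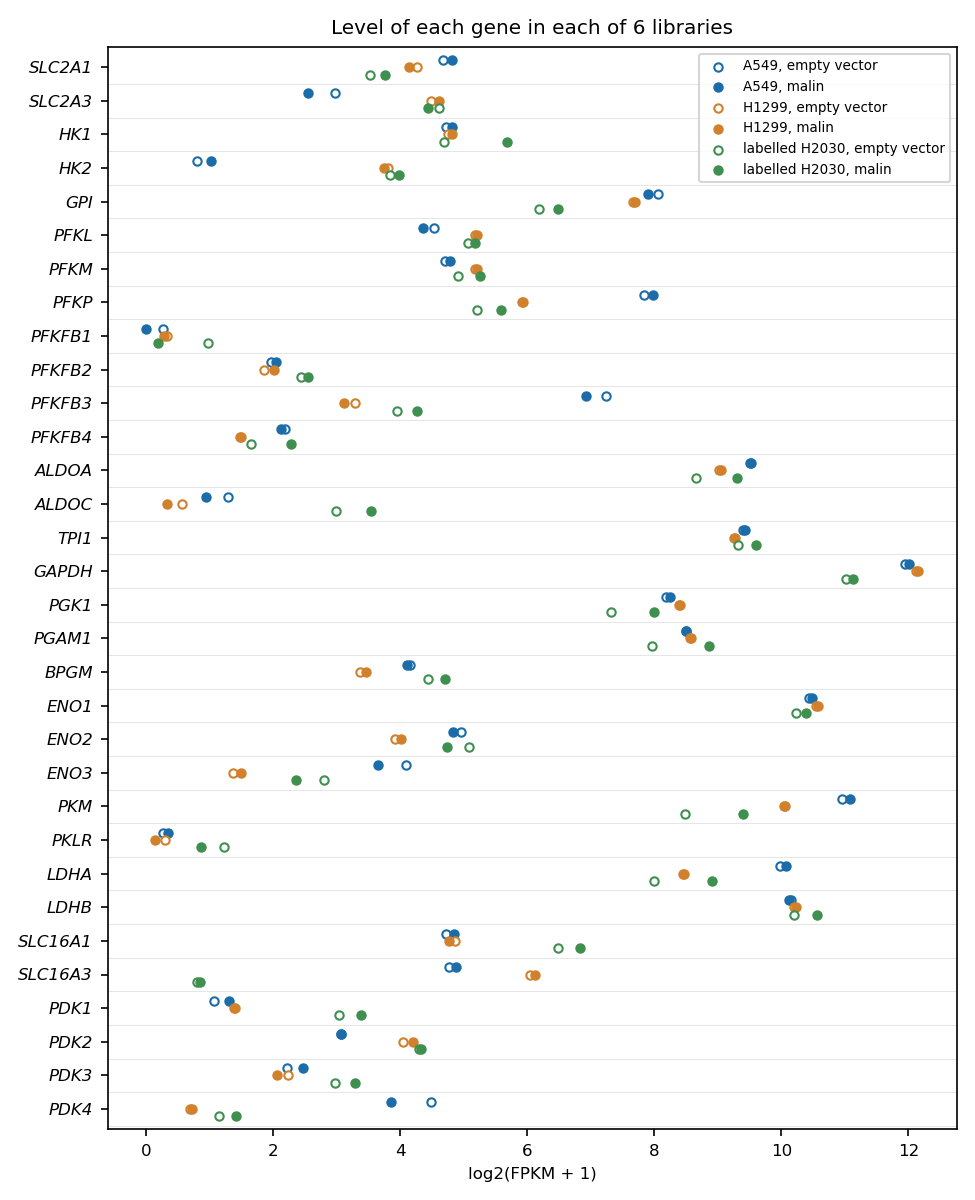
Level of each of the 32 genes in each library, as log2(FPKM + 1), with 1 row per gene, open points for the empty vector, filled points for malin and 1 colour per line. GAPDH sits furthest right, SLC16A3 is near 1 only in the libraries labelled H2030, and HK2 is near 1 only in A549.

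The first comparison was between lines, and it asks which isoform each line used. The gene with the largest share of its family differed between lines in 3 families, the glucose transporters, the lactate transporters and the PDH kinases. PFKP, PFKFB3, LDHA, PKM and PDK4 were highest in A549, SLC16A3 was highest in H1299, and SLC16A1, ALDOC and PDK1 were highest in the H2030-labelled pair. Line differences were tested with limma on log2(FPKM+1) with the vector as a term, over 12184 protein-coding genes. The libraries of a line carried different vectors, so the error is the spread between them after the mean vector difference. The p-values measure only that spread, which may be technical, since no label says that cultures were independent. It may also hold a difference between lines, since the headers of the H2030-labelled pair name different lines. That pair enters the error of every comparison, also that of A549 against H1299. Differences below are on the log2(FPKM+1) scale, with the moderated SE, 2 libraries per line and adjusted p-values by limma over all genes fitted.

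Large shares of all genes differed between lines, and the glycolysis genes are read against them. In A549 against H1299, 11 of the 30 fitted genes were higher and 6 lower, where 27.2% of all genes were higher and 34.5% lower. For A549 against the H2030-labelled pair the counts were 12 higher and 11 lower, beside 22.1% and 45% of all genes. In H1299 against that pair 8 were higher and 9 lower, beside 23.8% and 40.9%. With the libraries rescaled by the median of ratios, the share of all calls that were higher moved from 32.9% to 47.8% in the comparison of A549 with the H2030-labelled pair. In H1299 against that pair it moved from 36.8% to 46.9% after quantile normalization. The median over all genes was -0.09, -0.29 and -0.22 in the 3 comparisons in the order above, and -0.01, -0.05 and -0.06 after rescaling, against 0.11, 0.04 and -0.15 for the 30 glycolysis genes, which became 0.19, 0.30 and 0.02. Either scaling ended the calls of PFKM, PFKFB2 and BPGM between A549 and the H2030-labelled pair, and quantile normalization alone also those of ALDOA, PGK1 and PDK3 in that comparison, of ALDOA and PFKFB4 between A549 and H1299, and of PFKFB2 between H1299 and the H2030-labelled pair. It added calls for TPI1 and GAPDH, among others, and no called difference turned its sign. With only the A549 and H1299 libraries in the fit, 23 of the 30 genes passed between these lines, beside 9374 of all 12184, against 17 of 30 and 7510 of 12184 with all libraries.

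At glucose entry, A549 carried more SLC2A1, which encodes the widespread transporter GLUT1, and the other libraries more SLC2A3, which encodes the high-affinity GLUT3. SLC2A1 stood at 24.4 and 27.1 FPKM in A549 with empty vector and malin, 18.1 and 16.6 in H1299, and 10.4 and 12.6 in the H2030-labelled pair. Its libraries did not overlap between lines, and A549 exceeded the H2030-labelled pair by 1.10 ± 0.13 (SE; adjusted p = 0.000638, limma). SLC2A3 stood at 6.87 and 4.85 FPKM in A549, 21.4 and 23.4 in H1299, and 23.4 and 20.7 in the H2030-labelled pair. It was lower in A549 than in H1299 by a log2 difference of -1.78 ± 0.16 (adjusted p = 0.000289, limma), whereas H1299 and the H2030-labelled pair overlapped. SLC2A1 made up 78.1% and 84.8% of the summed FPKM of the pair in A549, 45.9% and 41.5% in H1299, and 30.8% and 37.8% in the H2030-labelled pair. The sum itself was 31.3 to 40 FPKM in all 6 libraries. Other transporters were also present, SLC2A6 at 5.2 to 13.2 FPKM and SLC2A8 at 5.24 to 13.3. With 6 further transporter genes counted, A549 had a mean SLC2A1 share of 46.4%, H1299 of 33.8% and the H2030-labelled pair of 19.6%.

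Hexokinase choice set A549 apart. HK1, the widely expressed hexokinase, was at 25.3 and 27.3 FPKM in A549, 26 and 27 in H1299, and 24.9 and 50.5 in the H2030-labelled pair, and no comparison between lines passed (limma, adjusted p 0.161 to 0.963). HK2, the insulin- and hypoxia-responsive isoform of muscle and many tumours, was at 0.75 and 1.03 FPKM in A549, 13.1 and 12.4 in H1299, and 13.3 and 14.8 in the H2030-labelled pair. The A549 values rest on an estimated 44 and 61 fragments, against 626 to 822 in the other libraries. A549 was lower than H1299 by a log2 difference of -2.86 ± 0.14 (adjusted p = 3.59e-05, limma) and lower than the H2030-labelled pair by -2.99 ± 0.14 (adjusted p = 2.65e-05). HK2 thus made up 2.89% and 3.64% of the summed HK1 and HK2 level in A549 and 22.7% to 34.8% elsewhere. It passed the filter mainly through H1299 and the H2030-labelled pair, so the HK2 tests of A549 are not independent of the filter. Their sizes depend on the pseudocount, and the HK2 difference of A549 from H1299 was -3.71 at a pseudocount of 0.1 and -1.59 at 5. A549 also expressed HKDC1, a further hexokinase gene outside the 32, at 13.8 and 13.7 FPKM, against 0.09 or less in the other libraries. With it and HK3 counted, HK1 made up 64.2% of the hexokinase level in A549 (mean of 2 libraries) rather than 96.7%. GPI, which interconverts glucose and fructose phosphates, was at 265 and 238 FPKM in A549, 201 and 207 in H1299, and 71.8 and 88.7 in the H2030-labelled pair. It was lower in the H2030-labelled pair than in either line, by 1.64 ± 0.12 against A549 (adjusted p = 0.000124, limma) and 1.34 ± 0.12 against H1299 (adjusted p = 0.000276).

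At the phosphofructokinase step, PFKP was higher and PFKL lower in A549 than in the other lines. PFKP, the platelet-type subunit, stood at 228 and 252 FPKM in A549, 60.04 and 59.6 in H1299, and 35.95 and 46.8 in the H2030-labelled pair. A549 exceeded H1299 by 1.98 ± 0.12 (adjusted p = 7.14e-05, limma) and the H2030-labelled pair by 2.52 ± 0.12 (adjusted p = 2.63e-05). PFKL, the liver-type subunit, was at 19.4 to 22.1 FPKM in A549 and 32.7 to 36.1 in the other 4 libraries. PFKM, the muscle-type subunit, was at 25.2 to 26.4 FPKM in A549 and 29.2 to 37.2 elsewhere. Its difference between A549 and the H2030-labelled pair, -0.34 (adjusted p = 0.042, limma), was -0.08 after median-of-ratios scaling (adjusted p = 0.587). PFKP made up 82.9% and 84.6% of the 3 subunits in A549, 46.1% and 45.3% in H1299, and 36.8% and 39.3% in the H2030-labelled pair, where the 3 subunits were at similar levels.

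PFKFB enzymes make and break the fructose bisphosphate that activates phosphofructokinase, and PFKFB3 is the isoform with the strongest kinase side. PFKFB3 was at 151 and 121 FPKM in A549, 8.73 and 7.61 in H1299, and 14.5 and 18.3 in the H2030-labelled pair. A549 exceeded H1299 by 3.89 ± 0.17 (adjusted p = 2.54e-05, limma), the largest line difference among the genes of glucose breakdown, and exceeded the H2030-labelled pair by 2.98 ± 0.17 (adjusted p = 5.1e-05). PFKFB3 led its family in all 6 libraries, with 94.9% to 95.8% in A549 and 60.2% to 67.3% elsewhere. PFKFB4 was at 3.54 and 3.35 FPKM in A549, 1.82 and 1.78 in H1299, and 2.15 and 3.88 in the H2030-labelled pair, and PFKFB2 at 2.62 to 4.85 in all 6 libraries.

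From aldolase to pyruvate, 1 gene carried most of each isoform family in all lines. ALDOA made up at least 98.3% of the aldolase level, ENO1 at least 96.8% of the enolase level and PKM at least 99.6% of the pyruvate kinase level. ALDOA was at 736 and 729 FPKM in A549, 517 and 526 in H1299, and 404 and 628 in the H2030-labelled pair. GAPDH was at 3954 and 4108 FPKM in A549, 4456 and 4562 in H1299, and 2065 and 2227 in the H2030-labelled pair, where it was lower than in H1299 by 1.07 ± 0.09 (adjusted p = 0.000165, limma). ENO1, the main enolase, was at 1385 and 1434 FPKM in A549, 1498 and 1531 in H1299, and 1195 and 1345 in the H2030-labelled pair. PGK1 was at 289.9 and 302 FPKM in A549, 338 and 335 in H1299, and 159 and 255 in the H2030-labelled pair. The ratio of GAPDH to ENO1 was thus 2.86 to 2.98 in A549 and H1299 and 1.66 to 1.73 in the H2030-labelled pair. PKM, the pyruvate kinase of most tissues, was at 1975 and 2171 FPKM in A549, 1057 and 1063 in H1299, and 357 and 673 in the H2030-labelled pair. The 3 lines did not overlap, and PKM was higher in A549 than in H1299 by 0.97 ± 0.22 (adjusted p = 0.0101, limma) and higher in H1299 than in the H2030-labelled pair by 1.11 ± 0.22 (adjusted p = 0.00528). The latter call was lost without the H1299 empty-vector library (0.85, adjusted p = 0.0604). TPI1, the triose phosphate isomerase, at 607 to 774 FPKM, and PGAM1, the phosphoglycerate mutase, at 359 and 362 FPKM in A549, 381 and 377 in H1299, and 247 and 463 in the H2030-labelled pair, passed in no comparison between lines (limma, adjusted p 0.132 to 0.807), although TPI1 did in 2 of them after quantile normalization.

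Minor isoforms of these steps also differed between lines. ALDOC, the brain-type aldolase, was at 6.97 and 10.6 FPKM in the H2030-labelled pair, 1.44 and 0.93 in A549 and 0.48 and 0.26 in H1299, where it rests on an estimated 10 and 5 fragments. The log2 difference from the H2030-labelled pair was -2.82 ± 0.24 in H1299 (adjusted p = 0.000205, limma) and -2.15 ± 0.24 in A549 (adjusted p = 0.000526). ALDOC passed the filter mainly through the H2030-labelled pair, so these tests are not independent of the filter. Their sizes depend on the pseudocount, and the difference in A549 was -2.79 at a pseudocount of 0.1 and -1.15 at 5. ENO3, the muscle enolase, was at 16 and 11.5 FPKM in A549, 1.57 and 1.80 in H1299, and 5.98 and 4.12 in the H2030-labelled pair, and the 3 lines did not overlap. A549 exceeded H1299 by 2.44 ± 0.18 (adjusted p = 0.000176, limma). ENO2, the neuronal enolase, was at 30 and 27.4 FPKM in A549 and 32.7 and 25.7 in the H2030-labelled pair, which overlapped, and at 14.2 and 15.1 in H1299. BPGM, which makes the bisphosphoglycerate of red cells, was at 9.3 and 9.98 FPKM in H1299, 16.8 and 16.1 in A549, and 20.6 and 25.1 in the H2030-labelled pair.

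At the pyruvate and lactate step, LDHA was higher in A549 than in the other lines and LDHB passed in no comparison. LDHB, the heart-type subunit, was at 1131 and 1107 FPKM in A549, 1176 and 1194 in H1299, and 1171 and 1509 in the H2030-labelled pair (limma, adjusted p 0.114 to 0.581 between lines). LDHA, the muscle-type subunit that favours lactate formation, was at 1011 and 1070 FPKM in A549, 351 and 347 in H1299, and 253 and 479 in the H2030-labelled pair. A549 exceeded H1299 by 1.57 ± 0.23 (adjusted p = 0.00181, limma), and the H1299 values lay between those of the H2030-labelled pair. The ratio of LDHA to LDHB was 0.894 and 0.966 in A549, 0.299 and 0.291 in H1299, and 0.216 and 0.318 in the H2030-labelled pair.

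Lactate transporters showed the widest difference among the 30 genes fitted. SLC16A3 encodes MCT4, the transporter typical of lactate-exporting cells, and SLC16A1 encodes MCT1. SLC16A3 was at 26.4 and 28.5 FPKM in A549, 65.1 and 68.2 in H1299, and 0.74 and 0.79 in the H2030-labelled pair. That pair lay below H1299 by 5.26 ± 0.11 (adjusted p = 5.81e-06, limma) and below A549 by 4.01 ± 0.11 (adjusted p = 6.86e-06, limma). A549 differed from H1299 by -1.25 ± 0.11 (adjusted p = 0.000277, limma). SLC16A3 was below 1 FPKM in that pair and passed the filter through A549 and H1299, so the tests against that pair are not independent of the filter. Their sizes depend on the pseudocount, and the difference from A549 was 4.99 at a pseudocount of 0.1 and 2.49 at 5. SLC16A1 went the other way, at 25.3 and 27.7 FPKM in A549, 28.2 and 26.3 in H1299, and 88.7 and 112 in the H2030-labelled pair, from which H1299 differed by -1.84 ± 0.13 (adjusted p = 9.98e-05, limma). SLC16A1 therefore held 99.2% and 99.3% of the summed level of the 2 transporters in the H2030-labelled pair, 49% and 49.3% in A549, and 30.2% and 27.8% in H1299. BSG, the chaperone that brings these transporters to the membrane, was at 256 to 380 FPKM in all 6 libraries.

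PDH kinases differed in the leading isoform as well. PDK4, the starvation- and lipid-responsive kinase, was at 21.3 and 13.4 FPKM in A549, 0.61 and 0.65 in H1299, and 1.22 and 1.66 in the H2030-labelled pair. A549 exceeded H1299 by 3.46 ± 0.23 (adjusted p = 0.000118, limma) and the H2030-labelled pair by 2.88 ± 0.23 (adjusted p = 0.000156, limma). The low values rest on an estimated 23 and 22 fragments in H1299 and 35 and 57 in the H2030-labelled pair. PDK4 passed the filter mainly through A549, so these tests are not independent of the filter. PDK2, a broadly expressed kinase, was at 7.36 and 7.37 FPKM in A549, 15.5 and 17.4 in H1299, and 18.7 and 19 in the H2030-labelled pair. PDK1, a known hypoxia target, was at 1.10 and 1.48 FPKM in A549, 1.60 and 1.63 in H1299, and 7.17 and 9.47 in the H2030-labelled pair, from which A549 differed by -2.02 ± 0.15 (adjusted p = 0.000117, limma). PDK3 was at 3.16 to 4.55 FPKM in A549 and H1299 and 6.81 and 8.71 in the H2030-labelled pair. PDK4 was the leading PDH kinase in A549, with 63.8% and 50% of the 4 genes, and PDK2 in H1299, with 72.5% and 76.2%, and in the H2030-labelled pair, with 55.1% and 48.9%. In bulk samples, fewer cells that express a gene and less of its RNA per cell cannot be told apart.

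**Figure D2:**
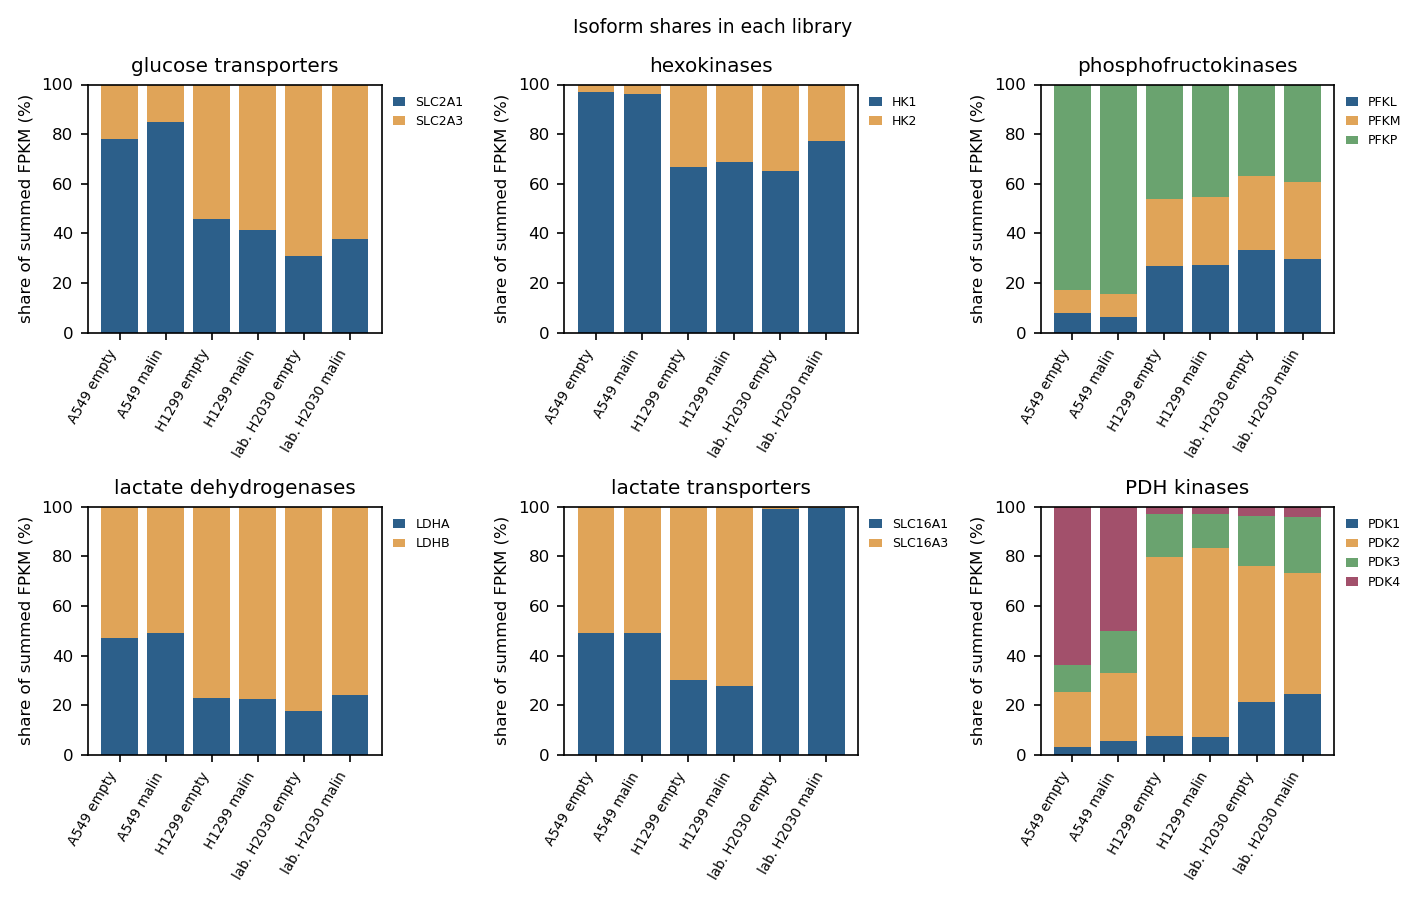
Share of each isoform gene in the summed FPKM of its family (percent, bars from 0 to 100) in each of the 6 libraries, for 6 families. SLC16A1 holds 99.2% and 99.3% in the libraries labelled H2030 (lab. H2030), PFKP holds 82.9% and 84.6% in A549, and PDK4 leads only in A549.

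The second comparison was malin against the empty vector, the contrast of the study's design. In A549 and H1299 the median glycolysis gene differed by at most 0.04 on the log2 scale between the vectors, and in the H2030-labelled pair most were higher with malin. Over the 3 lines none of the 30 fitted genes passed limma with the line as a block (adjusted p 0.927 to 0.996), where 0% of all genes passed. NHLRC1 itself was not called, although it was higher with malin in each pair, so the lack of calls says little about the glycolysis genes. At an unadjusted p under 0.05 (limma) there were 213 genes over the whole table and 0 of the 30. The largest mean differences were those of HK1, 0.38 ± 0.19 (limma's SE, n = 3 pairs; SD over lines 0.53), PKM, 0.35 ± 0.18 (SD 0.49), LDHA, 0.33 ± 0.18 (SD 0.51), and PGAM1, 0.30 ± 0.19 (SD 0.52). Those SDs exceed the means, since the values of the H2030-labelled pair stood apart. Without that pair the 4 means were 0.08, 0.07, 0.03 and 0.0004, and 0 of the 30 genes passed, beside 1 of all 12184 (limma). At an unadjusted p under 0.05 there were 2 of the 30, beside 492 of 12184 (limma). Within a line there is 1 library per vector and no replicate check, so the values below are descriptions.

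In A549, the median log2 difference of the 30 genes was 0.04, beside 0 over all genes fitted. By 1.5-fold on the FPKM+1 scale, 0 of them were higher, where 0.542% of all genes were, and 1 was lower, where 0.583% were. That gene was PDK4, with 21.3 FPKM in the empty-vector and 13.4 in the malin library, or about 763 and 484 fragments, whose ratio was 0.628 (0.559 to 0.705, 95% exact binomial, counting error only). The next lower genes were ENO3 at 16 and 11.5 FPKM, SLC2A3 at 6.87 and 4.85, ALDOC at 1.44 and 0.93, and PFKFB3 at 151 and 121. PKM, LDHA and GAPDH, the abundant genes, had log2 differences of 0.14, 0.08 and 0.05.

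H1299 had the highest NHLRC1 level. Its glycolysis genes had the narrowest range of differences, but so did its genes at large, with an SD of 0.16 over all genes fitted. That SD was 0.18 in A549 and 0.40 in the H2030-labelled pair. The log2 differences of the glycolysis genes in H1299 ran from -0.23 for ALDOC to 0.16 for PDK2 and PFKFB2, with a median of 0.02 beside 0.005 over all genes. Past 1.5-fold there were 0 higher and 0 lower, where 0.328% and 0.148% of all genes were. PKM, at 1057 and 1063 FPKM, LDHA, at 351 and 347, and ALDOA, at 517 and 526, each differed by at most 0.03 on the log2 scale.

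In the H2030-labelled pair, 27 of the 30 genes were higher with malin and 3 lower, and the median log2 difference was 0.31, beside -0.03 over all genes, of which 45.9% were higher. Past 1.5-fold, 7 were higher, where 4.28% of all genes were, and 0 were lower, where 7.33% were. The 7 were HK1, PFKFB4, ALDOA, PGK1, PGAM1, PKM and LDHA, which act at the first, regulatory and later steps and at lactate formation. HK1 was at 24.9 FPKM with the empty vector and 50.5 with malin, a log2 difference of 0.99. LDHA was at 253 and 479 FPKM (0.92), PKM at 357 and 673 (0.91), and PGAM1 at 247 and 463 (0.90). PGK1, the phosphoglycerate kinase that makes the first ATP of the pathway, was at 159 and 255 FPKM (0.67), and ALDOA at 404 and 628 (0.63). PFKFB4 was at 2.15 and 3.88 FPKM (0.63), an estimated 62 and 133 fragments. Counting error was small for PGAM1, at a malin to empty vector ratio of 1.87 (1.80 to 1.95, 95% exact binomial), and PGK1, at 1.60 (1.55 to 1.65). For PFKFB4 the ratio was 1.82 (1.33 to 2.5), an interval that reaches below 1.5. No interval was estimated for HK1, LDHA, PKM and ALDOA. Just under the threshold lay ALDOC at 6.97 and 10.6 FPKM (0.54).

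Differences were smaller at other steps in that pair. GAPDH, at 2065 and 2227 FPKM, and ENO1, at 1195 and 1345, had log2 differences of 0.11 and 0.17, although they act on either side of PGK1 and PGAM1. TPI1 was at 635 and 774 FPKM (0.28), GPI at 71.8 and 88.7 (0.30), LDHB at 1171 and 1509 (0.37), PFKP at 35.95 and 46.8 (0.37), and SLC16A1 at 88.7 and 112 (0.34). SLC16A3, at 0.74 and 0.79 FPKM, and PDK2, at 18.7 and 19, were nearly level. The 3 lower genes were ENO3 at 5.98 and 4.12 FPKM (-0.45), ENO2 at 32.7 and 25.7 (-0.34), and SLC2A3 at 23.4 and 20.7 (-0.17). PFKFB1, not fitted, was at 0.96 and 0.14 FPKM. With malin, HK1, PGAM1, TPI1 and LDHB, among others, stood above the A549 and H1299 libraries in this pair, whereas PGK1, PKM and GAPDH, among others, stayed below all of them.

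**Figure D3:**
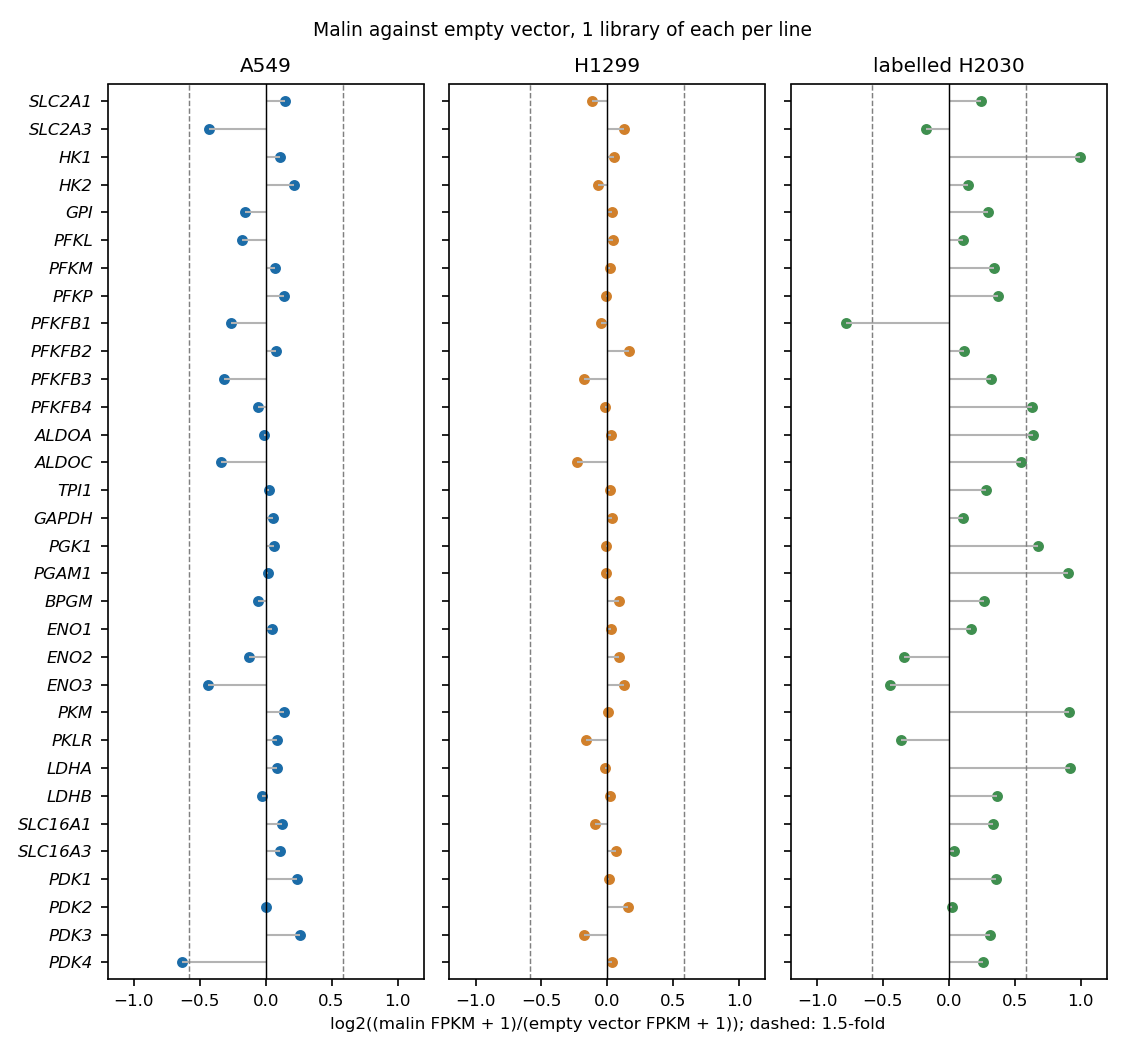
Log2((malin FPKM + 1)/(empty vector FPKM + 1)) of each of the 32 genes in each line, with 1 panel per line, 1 row per gene and dashed lines at 1.5-fold. In the H2030-labelled pair, 7 fitted genes lie right of the line and PFKFB1, at 0.96 and 0.14 FPKM, lies left of it, whereas in A549 PDK4 alone passes it and in H1299 none does.

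Other features differed between the libraries of that pair as well. Over all genes fitted, the SD of the log2 difference was 0.40, against 0.18 in A549 and 0.16 in H1299. Of 12 ATF4 and stress genes, 11 lay lower past 1.5-fold in the malin library of the H2030-labelled pair, with a summed level of 1784 and 854 FPKM, whereas the same sum ran from 354 to 542 in A549 and H1299. The level of these genes and the line named in the column header thus differed alongside the glycolysis genes. The part of the stress genes in the result was not tested, and for the 27 higher genes line and vector cannot be told apart. Direction was shared by all 3 lines for 10 of the 30 genes that were higher (HK1, PFKM, PFKFB2, TPI1, GAPDH, ENO1, PKM, SLC16A3, PDK1 and PDK2), beside 11% of all genes, and for 0 that were lower, beside 11.3%. In A549 and H1299 these 10 differences were at most 0.24 on the log2 scale. Of the 30 genes, 18 were higher in A549, 19 in H1299 and 27 in the H2030-labelled pair, beside 49.5%, 51.5% and 45.9% of all genes. The shared count thus depends on the H2030-labelled pair and does not by itself show agreement between lines.

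**Figure D4:**
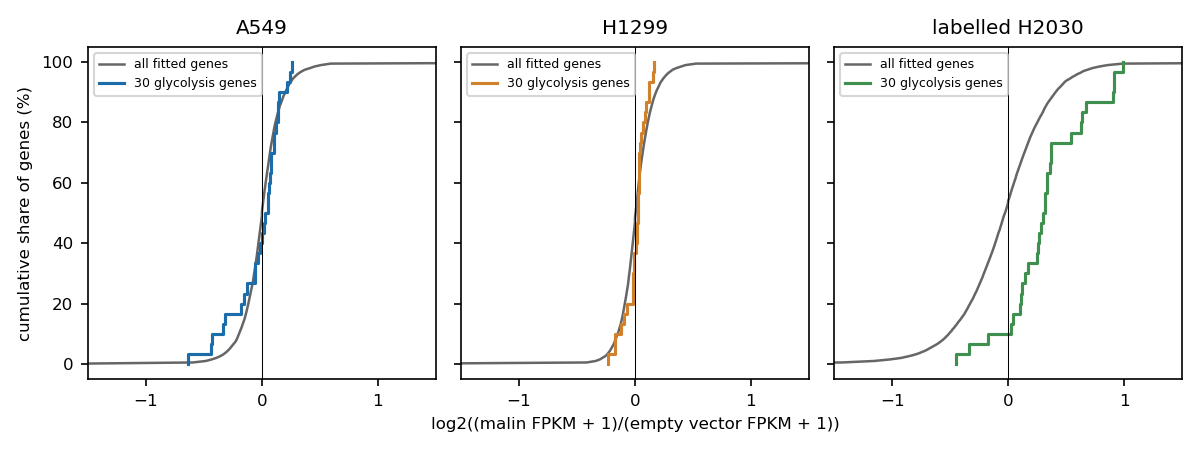
Cumulative share of genes (percent) against the log2 malin difference in each line, for all 12184 fitted genes (grey) and the 30 fitted glycolysis genes (coloured). The curves lie close together in A549 and H1299, and in the H2030-labelled pair the glycolysis genes lie to the right, with a median of 0.31 against -0.03.

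Hypoxia-inducible factor and MYC are well-known regulators of glycolytic genes, and both can bind motifs that contain ACGTG. Other forms of their motifs were not searched, so a gene without ACGTG may still hold one. The promoter windows of RefSeq (GRCh38.p14, 250 bases before to 50 after a start) covered 29 of the 32 genes, with 60 windows. ACGTG, on either strand, was in at least 1 window of 18 of those 29 genes (62.1%), beside 4175 of 14080 protein-coding genes of the tables (29.7%). Per window the shares were 36.7% and 23.5%. The palindrome CACGTG, which contains ACGTG on both strands, was in a window of 8 genes (27.6%), beside 11.4%, and per window the shares were 13.3% and 8.52%. These are matches of letters, with no measure of binding. Of the 7 genes higher past 1.5-fold in the H2030-labelled pair, 3 held ACGTG (LDHA, PGK1 and ALDOA), and 4 did not in any window given (HK1, PFKFB4, PGAM1 and PKM). Among the other 22 genes with a window, 15 held it. The windows of LDHA, PGK1 and ALDOA are shown because they carry the matches, and that of LDHB because it is the partner of LDHA and holds none. Capitals mark ACGTG or its reverse complement CACGT. Each is printed 5′ to 3′ on the strand of its gene, and each surrounds the outermost start of its gene in RefSeq. They lie at chr11:18394313-18394612 (plus strand) for LDHA, chr12:21657793-21658092 (minus strand) for LDHB, chrX:78103998-78104297 (plus strand) for PGK1, and chr16:30064029-30064328 (plus strand) for ALDOA.
LDHA: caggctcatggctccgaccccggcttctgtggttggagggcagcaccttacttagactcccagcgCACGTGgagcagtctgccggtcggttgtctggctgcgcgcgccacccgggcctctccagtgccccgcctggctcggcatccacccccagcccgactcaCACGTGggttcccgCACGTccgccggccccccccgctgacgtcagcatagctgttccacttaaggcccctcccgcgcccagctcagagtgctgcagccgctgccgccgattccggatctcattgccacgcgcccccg
LDHB: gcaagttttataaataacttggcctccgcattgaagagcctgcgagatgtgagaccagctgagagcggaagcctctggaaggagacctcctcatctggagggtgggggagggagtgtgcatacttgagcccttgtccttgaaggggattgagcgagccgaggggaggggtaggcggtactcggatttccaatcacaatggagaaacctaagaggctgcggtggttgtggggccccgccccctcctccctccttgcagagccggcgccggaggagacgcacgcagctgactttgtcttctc
PGK1: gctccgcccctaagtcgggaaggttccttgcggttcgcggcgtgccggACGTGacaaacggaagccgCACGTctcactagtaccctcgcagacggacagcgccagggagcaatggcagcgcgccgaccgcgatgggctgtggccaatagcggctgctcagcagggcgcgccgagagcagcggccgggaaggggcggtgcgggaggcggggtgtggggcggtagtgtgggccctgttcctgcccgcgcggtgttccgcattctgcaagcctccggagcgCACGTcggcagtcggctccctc
ALDOA: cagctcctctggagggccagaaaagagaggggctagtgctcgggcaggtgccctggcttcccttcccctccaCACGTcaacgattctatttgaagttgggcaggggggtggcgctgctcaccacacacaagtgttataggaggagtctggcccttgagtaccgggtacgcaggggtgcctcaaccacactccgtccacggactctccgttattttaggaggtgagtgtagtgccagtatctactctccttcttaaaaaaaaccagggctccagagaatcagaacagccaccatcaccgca
LDHA holds 3 separate sites, 2 of them the palindrome CACGTG, all before its start. PGK1 holds 3, of which 1 lies after its start, and ALDOA holds 1 in this window.

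Genes around the pathway were examined in 8 further lists chosen by function. None of their genes passed limma for malin over the lines. Other glycolysis isoforms and transporters had 11 of 24 genes fitted and 0 past 1.5-fold in any line. Pyruvate entry and the PDH complex had 11 of 11 fitted and 0 past 1.5-fold, with PDHB, a subunit of the complex, at 62.6 and 87.1 FPKM in the H2030-labelled pair. Of 20 fitted genes of the TCA cycle, 1 was higher past 1.5-fold, IDH1, the cytosolic isocitrate dehydrogenase, at 12.6 and 25.5 FPKM in that pair. Of 8 fitted pentose phosphate genes 1 was lower, PGLS, at 63.8 and 39.5 FPKM in the same pair. Gluconeogenesis had 3 fitted genes, and PCK2, a mitochondrial carboxykinase that is also an ATF4 target, was lower there, at 59.6 and 22.9 FPKM. The medians of these 5 lists in the H2030-labelled pair were 0.11, 0.03, 0.10, 0.01 and 0.11 in the order given, against 0.31 for the 30 glycolysis genes.

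Both regulators of glycolytic genes and hypoxia targets outside glycolysis included higher and lower genes in the H2030-labelled pair. No list of MYC targets was examined. Of 17 fitted regulators 1 was higher past 1.5-fold in the H2030-labelled pair and 0 lower, with a median of 0.14. The higher gene was HNRNPA1, a splicing factor of PKM, at 808 and 1370 FPKM. PTBP1, which acts with HNRNPA1 on PKM, was at 133 and 187 FPKM, and MYC at 88 and 122. TXNIP, a glucose-responsive inhibitor of glucose uptake, stood at 22.9 and 15.2 FPKM there, and did not exceed 0.03 in the other 4 libraries. Of 21 fitted hypoxia targets outside glycolysis, 2 were higher and 3 lower past 1.5-fold in the H2030-labelled pair, where 4.28% and 7.33% of all genes were. Their median was 0.0018. EGLN3, an oxygen-sensing hydroxylase, was at 1.90 and 6.12 FPKM, whereas VEGFA, the vascular growth factor, was at 39.5 and 13.7 and STC2 at 75 and 17.4. In A549, 2 of these 21 were higher, where 0.542% of all genes were, with ANKRD37 among them at 1.17 and 2.30 FPKM. In H1299 there were 0.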

How the data were processed

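RNA from 6 cell line libraries was measured by sequencing. Per the submitters' processing notes, reads were handled with Cufflinks, STAR, cutadapt and FastQC on hg38. Versions, the strand setting and the treatment of reads shared with copies are not given in the sources used here. The authors deposited 1 table of FPKM values per library, per the file headers, which were used as deposited. Blank or date-like symbols (37 of 19903) were replaced from gene identifiers where possible (35), and 19770 genes matched RefSeq. Protein-coding genes with a mean of at least 1 FPKM (12184) were tested on log2(FPKM+1), a scale that understates folds of low genes, with limma 3.58.1 in R 4.3.3 (terms for line and vector, 2 residual degrees of freedom) and Benjamini-Hochberg adjustment at 0.05. The fit was tested on simulated data. The vector libraries pair by cell line, which the labels give, so line was the block.

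Depth is not given. It was estimated from the spacing of low FPKM values of single-transcript genes at 8300000 to 10700000 fragments, with 80.6% to 82% of values within 0.2 of whole fragments, where 40% would fall by chance at a fixed step; the step and a 100-base length offset were chosen from the same values. Ratio intervals are 95% exact binomial and cover counting error only. Each gene was given in every library where it differed by 1.5-fold with malin in any line, by 2-fold and past the test between lines, or led its family; others are given by range, though some of these are given in full. Of other lists, up to 3 genes with the largest mean malin difference and up to 3 with the largest in the H2030-labelled pair were eligible; HKDC1, SLC2A8, BSG and the marker genes were named beyond this rule. One gene of these lists is not reported here and was left out of the family sums. The genes and lists were chosen with earlier results of these data known. Alternatives covered the pseudocount, the filter, scaling, the variance trend, the block, the vector term, the fold threshold, the family members and leaving out libraries; 2 of them, the fit on A549 and H1299 alone and the empty-vector library labelled H2030 alone, were chosen after seeing the data.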

Additional observations from a re-analysis of the deposited data

How the results depend on the processing

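Of the values recomputed for named genes, 85 of 87 for malin, all 135 for A549 against H1299, all 208 for A549 against the H2030-labelled pair and 123 of 124 for H1299 against that pair kept their direction and side of the threshold. The exceptions were PFKFB4 with malin, 0.18 over 3 lines and -0.0411 to 0.3055 with 1 line left out (lowest without the H2030-labelled pair), PDK4 with malin, -0.11 over 3 lines and -0.2994 to 0.1481 (highest without A549), and PKM between H1299 and the H2030-labelled pair, 0.85 without the H1299 empty-vector library. Leaving out 1 line gave 0 to 1 genes called for malin, the 1 call coming without the H2030-labelled pair (492 genes at an unadjusted p under 0.05, limma). Without the replicate block, that is, without pairing by line, limma called 0 genes, with 0 at an unadjusted p under 0.05, and the block changed no other call. Leaving out 1 library gave 4564 to 9393 genes called between A549 and H1299 (11 to 24 glycolysis genes), 5729 to 9217 between A549 and the H2030-labelled pair (17 to 27), and 5227 to 8983 between H1299 and that pair (11 to 25), so the lone library left was assumed to vary like the others. Between A549 and H1299, the counts without an A549 or H1299 library were 4564 to 4826, and those without an H2030-labelled library were 9392 and 9393, against 7510 with all. The low count between H1299 and the H2030-labelled pair came without the H1299 empty-vector library. The cause was not tested. Past 1.5-fold with malin, 1 gene was found in H1299 at a pseudocount of 0.1 and 0 in A549 at a pseudocount of 5, and at 2-fold there were 0 in A549 and 0 in the H2030-labelled pair. With further paralogs counted, HK1 made up 64.2% in A549, SLC16A1 48.7% in A549 and 97.1% in the H2030-labelled pair, and SLC2A1 46.4%, 33.8% and 19.6% in A549, H1299 and the H2030-labelled pair. Genes near 1 FPKM, such as HK2 and PDK4 where they are low, rest on few fragments (44 and 61 for HK2 in A549), and 1 library per line and vector limits every malin value.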
